A study of Mus musculus with 36 samples.

Results

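SAHA and CI-994 were compared in the nucleus accumbens (NAc), from the arrays that GEO's labels place in that region under either drug. That gave 6 arrays of the 36 in the series, 3 for each drug, and each array carried RNA pooled from 2 mice. The series holds 4 treatments (vehicle, Cpd-60, SAHA and CI-994) in 3 brain regions (medial prefrontal cortex, PFC, NAc and hippocampus, HIP), all measured on Illumina MouseWG-6 BeadChips. The animals were adult male mice labelled C57BL/6J that received 10 daily intraperitoneal injections and were killed 1 hour after the last. SAHA was given at 25 mg/kg and CI-994 at 10 mg/kg, both in 5 mL/kg. The vehicle group, which enters below as background, received a mixture of saline, PEG-400 and DMSO at 7.5 mL/kg. Because the 2 drugs were given at 1 dose each and the doses differ, the compound and its dose cannot be told apart. Each replicate is a pool, so differences between single mice were not measured.

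Histone deacetylases (HDACs) remove acetyl groups from the lysines of histones and other proteins, and they act on chromatin mostly as the catalytic subunits of corepressor complexes. SAHA (vorinostat) is a hydroxamate that inhibits class I and class II enzymes without much selectivity, whereas CI-994 (tacedinaline) is a benzamide that acts on class I enzymes. The NAc is the ventral part of the striatum, most of its neurons are GABAergic medium spiny neurons that express dopamine receptors, and it serves reward and motivation. Comparing the drugs with each other asks whether transcript levels under a broad inhibitor differed from those under a class I inhibitor in this region.

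No transcript separated the 2 drugs after correction for the number of probes. Of 22067 probes tested with limma, 0 passed an adjusted p of 0.05, and the smallest adjusted p was 0.9997. At an unadjusted p under 0.05, 294 probes passed (1.33%), of which 181 were higher under SAHA and 113 were higher under CI-994. A size of 1.2-fold or more was also met by 80 of them (0.363%), 57 of them higher under SAHA (0.258%) and 23 higher under CI-994 (0.104%). With the BeadChip as a block in the fit, the same 2 thresholds gave 596 and 126 probes, and 0 passed the adjusted p. In the main fit, the second count of 80 moved with single pools. It rose to 164 without SAHA replicate 1, 432 without SAHA replicate 2, 193 without CI-994 replicate 1 and 178 without CI-994 replicate 3. It fell to 56 without SAHA replicate 3 and 58 without CI-994 replicate 2. In each of these fits 0 passed the adjusted p. The 3 SAHA pools lay wholly above the 3 CI-994 pools for 752 probes (3.41%) and wholly below them for 740 (3.35%).

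A p above the threshold does not show that the drugs act alike, so the width of the intervals matters. The median standard error of the SAHA minus CI-994 difference was 0.10 on the log2 scale, and the median half-width of its 95% confidence interval was 0.22. The interval lay within 1.2-fold for 43.0% of the probes tested, within 1.5-fold for 91.3% and within 2-fold for 98.4%. Differences of 1.2-fold or more, whatever their p, were estimated for 160 probes higher under SAHA and 93 higher under CI-994. The intensities were not background-subtracted, so these shares and counts hold for this scale only. With neqc, limma's background correction and normalization, 295 probes passed an unadjusted p of 0.05 and all 295 also met 1.2-fold. In the main fit these counts were 294 and 80.

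**Figure D1:**
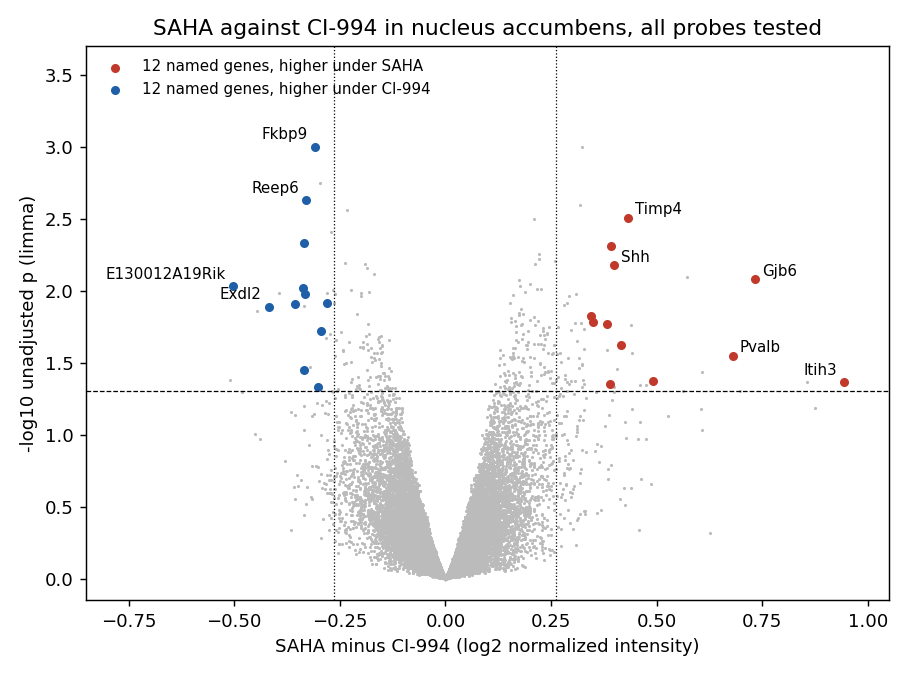
Each grey point is 1 of the 22067 probes tested in the NAc. The x axis is the SAHA minus CI-994 difference in log2 normalized intensity and the y axis is -log10 of the unadjusted limma p. The dashed line marks the 0.05 threshold, the dotted lines mark 1.2-fold differences, and the coloured points are the 12 named genes in each direction. The largest named difference is that of Itih3, 0.94 on the log2 scale, and 0 probes passed an adjusted p of 0.05.

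The 6 arrays resembled each other by BeadChip rather than by drug. Replicate 1 of both drugs was hybridized on BeadChip 1, and replicates 2 and 3 of both were on BeadChip 2. The SAHA and CI-994 arrays of replicate 1 correlated at r = 0.994 across the probes tested. The SAHA array of replicate 1 correlated with SAHA replicates 2 and 3 at r = 0.961 and 0.971. On BeadChip 2, the 2 CI-994 arrays correlated at 0.994 and the 2 SAHA arrays at 0.984, the lowest value within that BeadChip. Both drugs were spread over the BeadChips in the same way, so the BeadChip does not enter the difference between them, although it widens the spread within each group. The 2 SAHA arrays on BeadChip 2 were thus less alike than either was to an array of CI-994.

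**Figure D2:**
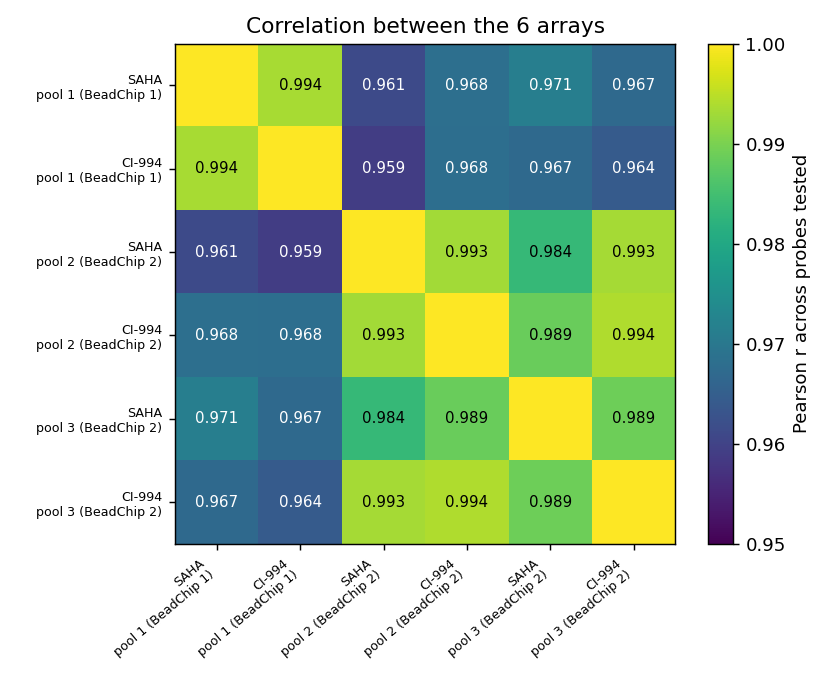
Pearson correlation across the probes tested for each pair of the 6 arrays, ordered by pool number. The colour scale starts at 0.95. Pairs on the same BeadChip lie between 0.984 and 0.994, whatever the drug, and pairs across BeadChips lie between 0.959 and 0.971.

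Markers of medium spiny neurons were compared between the regions. The mean log2 intensity of the 17 markers tested in the NAc lay between 10.23 and 10.87 on the 6 arrays. The same 17 probes averaged 8.06 to 8.29 in the PFC and 7.76 to 7.98 in the HIP arrays of these drugs. Each was the brightest probe of its gene on the 6 NAc arrays among those that passed the detection filter there. Of the 17, 15 passed that filter in the PFC and 14 in the HIP. The choice favours the NAc, so the gap is no independent check of the region labels.

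The genes with the largest separated differences are given next, 12 in each direction. They were taken from probes that passed both thresholds above and had no overlap between the 3 pools of each drug, of which there were 30 higher under SAHA and 18 higher under CI-994. Since this comparison chose them, their values are descriptions. The 12 genes higher under SAHA were Itih3, Gjb6, Pvalb, 4930544G21Rik, Timp4, Anln, Shh, Fndc5, Gprc5b, Sult1a1, Pdhb and Sepp1, and their differences ran from 1.27-fold to 1.92-fold. The 12 genes higher under CI-994 were E130012A19Rik, Exdl2, Tpd52l1, Wnt7a, Cttnbp2, Sox12, 1110038F14Rik, Reep6, Fkbp9, 1810046J19Rik, Abcb8 and Mapkap1, and theirs ran from 1.21-fold to 1.42-fold. The median difference over all probes tested was 0.00 on the same scale.

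The largest difference on the SAHA side was that of Itih3. Itih3, a heavy chain of the inter-alpha-trypsin inhibitors that binds hyaluronan, had log2 intensities of 9.42, 9.42 and 10.04 in SAHA replicates 1, 2 and 3 and of 8.01, 8.63 and 9.41 under CI-994. The pools were separated by the narrowest of margins, between SAHA replicate 2 and CI-994 replicate 3, while CI-994 replicate 1 stood lowest of the 6. The difference was 0.94 ± 0.41 (SE) on the log2 scale, or 1.92-fold, with a 95% interval from 1.02-fold to 3.61-fold (limma, unadjusted p = 0.0432). A second Itih3 probe differed by 0.53 ± 0.27 with an unadjusted p of 0.0747. Of the 6 fits that each left out 1 SAHA or CI-994 pool, 1 kept Itih3 at an unadjusted p under 0.05.

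Gjb6 encodes connexin 30, a gap junction protein of astrocytes, and its log2 intensities were 9.46, 9.36 and 9.99 under SAHA. Under CI-994 they were 8.39, 9.004 and 9.21, with replicate 1 the lowest again. SAHA was higher by 0.73 ± 0.23, a 1.66-fold difference with an interval from 1.17-fold to 2.35-fold (limma, unadjusted p = 0.00831). Timp4, a secreted inhibitor of matrix metalloproteinases, read 8.52, 8.19 and 8.58 under SAHA and 8.01, 7.89 and 8.10 under CI-994. Its difference was 0.43 ± 0.11, at 0.51 on BeadChip 1 and 0.39 on BeadChip 2, and all 6 fits with a pool left out kept Timp4 and Gjb6 at an unadjusted p under 0.05.

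Pvalb, the calcium buffer of fast-spiking interneurons, measured 8.89, 8.74 and 9.04 under SAHA and 8.09, 7.94 and 8.59 under CI-994. The difference was 0.68 ± 0.27, and 2 of the 6 fits with a pool left out kept it at an unadjusted p under 0.05. The vehicle pools alone spanned almost the whole of that range for Pvalb, from 8.02 to 8.93. No other tested marker of interneurons passed. Of the 8 markers tested, Pvalb included, 6 were higher under SAHA, with a median difference of 0.06. Sst, which encodes somatostatin (-0.02 ± 0.37), and Npy, which encodes neuropeptide Y (-0.14 ± 0.09), were lower. The gene listed as 4930544G21Rik, whose current symbol is Sphkap and whose product anchors protein kinase A, was 9.27, 9.16 and 9.57 under SAHA against 8.61, 8.82 and 9.09 under CI-994.

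Secreted signals appeared on both sides. Shh, the hedgehog ligand, was dim on these arrays, at 7.30, 6.99 and 7.37 under SAHA and 6.76, 6.77 and 6.93 under CI-994. That is a difference of 0.40 ± 0.12 (limma, unadjusted p = 0.00667), and all 6 fits with a pool left out kept it under 0.05. Fndc5, the precursor of the secreted peptide irisin, was higher under SAHA by 0.39 ± 0.11, and its 3 other probes differed by 0.18, 0.36 and 0.19 in the same direction without passing. Wnt7a, a Wnt ligand, lay on the other side, at 8.004, 7.96 and 7.86 under SAHA and 8.48, 8.27 and 8.08 under CI-994. The Wnt7a difference was -0.34 ± 0.11, with a 95% interval from -0.57 to -0.10.

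Sult1a1, a phenol sulfotransferase, read 7.70, 7.56 and 7.55 under SAHA and 7.27, 7.19 and 7.20 under CI-994, so that each group was tight and the gap between them was wider than either range. The difference was 0.38 ± 0.14, at 0.43 on BeadChip 1 and 0.36 on BeadChip 2. Pdhb, the beta subunit of the pyruvate dehydrogenase E1 component, differed by 0.35 ± 0.12, but 2 other Pdhb probes differed by -0.05 and 0.15 and did not pass. Sepp1 (current symbol Selenop), the plasma carrier of selenium, differed by 0.35 ± 0.12, and its second, dimmer probe by -0.03 ± 0.28. Anln, an actin-binding protein of the cleavage furrow that oligodendrocytes also express, differed by 0.42 ± 0.16, and the receptor Gprc5b by 0.39 ± 0.17. Of the 6 fits with a pool left out, 3 kept Anln and 2 kept Gprc5b at an unadjusted p under 0.05. A second, dimmer Anln probe differed by 0.03 ± 0.07 and a second, dimmer Gprc5b probe by 0.19 ± 0.12, and neither passed.

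On the CI-994 side, E130012A19Rik, now named Epop, encodes a partner of Polycomb repressive complex 2 and elongin and had the largest difference of the 12. It read 7.67, 7.78 and 7.50 under SAHA and 8.44, 8.05 and 7.97 under CI-994, a difference of -0.50 ± 0.16 (limma, unadjusted p = 0.00932). Sox12, a transcription factor of the SoxC group, was 7.54, 7.80 and 7.81 under SAHA and 8.09, 8.02 and 8.05 under CI-994. Its 3 CI-994 pools were close together, and the lowest value was that of SAHA replicate 1. The 2 other, dimmer Sox12 probes gave -0.08 ± 0.11 and 0.03 ± 0.07. Cttnbp2, a cortactin-binding protein of dendritic spines, differed by -0.34 ± 0.14. Its 3 other probes gave -0.28 ± 0.13, -0.05 ± 0.15 and 0.08 ± 0.10 and did not pass.

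Fkbp9, a peptidyl-prolyl isomerase of the endoplasmic reticulum, had the smallest unadjusted p of the named genes. It read 8.14, 8.18 and 8.05 under SAHA and 8.52, 8.34 and 8.43 under CI-994, a difference of -0.31 ± 0.07 (limma, unadjusted p = 0.00100). The vehicle pools lay with the SAHA pools for Fkbp9, at a mean of 8.07. Tpd52l1, of the tumor protein D52 family, was 8.44, 8.23 and 8.33 under SAHA and 8.71, 8.67 and 8.69 under CI-994. A second Tpd52l1 probe gave -0.30 ± 0.07 (limma, unadjusted p = 0.00180) beside the -0.36 ± 0.12 of the first.

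Reep6, which shapes the endoplasmic reticulum and aids receptor trafficking, differed by -0.33 ± 0.08, but its second probe differed by 0.21 ± 0.06 with the pools separated in the opposite direction. The 2 Reep6 probes thus disagree, and the gene has no single direction here. Exdl2 (current symbol Exd2, an exonuclease) differed by -0.42 ± 0.14, Abcb8, a mitochondrial ABC transporter, by -0.29 ± 0.11 and Mapkap1, the Sin1 subunit of mTOR complex 2, by -0.28 ± 0.09. The other probes for Exdl2, Abcb8 and Mapkap1 were lower under SAHA by smaller amounts, none of them past an unadjusted p of 0.05. The remaining genes, 1110038F14Rik and 1810046J19Rik (current symbol Mien1), differed by -0.33 ± 0.11 and -0.30 ± 0.13, and a second 1110038F14Rik probe by -0.06 ± 0.14.

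**Figure D3:**
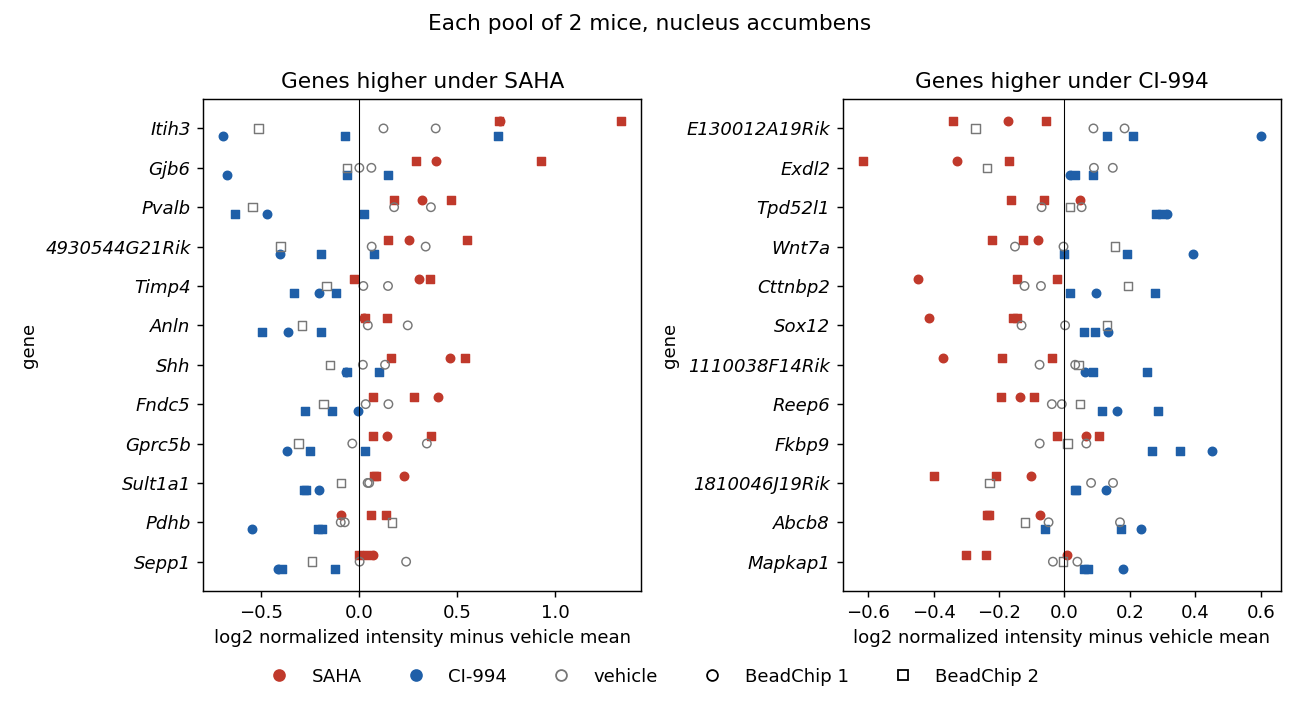
Log2 normalized intensity of the 24 named genes in each NAc pool, minus the mean of the 3 vehicle pools. Red marks SAHA, blue CI-994 and open grey symbols vehicle; circles are arrays of BeadChip 1 and squares arrays of BeadChip 2. The red and blue points do not overlap in any row because the genes were chosen so, and 0 on the axis is the vehicle mean.

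The values of these genes against vehicle are given next, with the limit that both drugs share the same 3 vehicle arrays. Vehicle replicates 1 and 2 were on BeadChip 1 and replicate 3 on BeadChip 2, unlike the pools of either drug. The BeadChip therefore enters each difference from vehicle, and the main fit did not separate it. By the same pair of thresholds, 124 probes differed between SAHA and vehicle (0.562%) and 87 between CI-994 and vehicle (0.394%), and 0 passed an adjusted p of 0.05 in either comparison. At an unadjusted p under 0.05 alone, 1.83% of all probes differed between SAHA and vehicle and 1.74% between CI-994 and vehicle. Of the 12 genes higher under SAHA, 4 were past that threshold between SAHA and vehicle and 3 between CI-994 and vehicle. Of the 12 genes higher under CI-994 these counts were 2 and 3. Both sets of genes were chosen for a gap between the drugs on these same arrays. That choice also favours values far from vehicle, so these counts cannot be weighed against the shares of all probes. Itih3 was 0.92 ± 0.41 above vehicle under SAHA and -0.02 ± 0.41 under CI-994. Shh was 0.39 ± 0.12 above vehicle under SAHA and -0.01 ± 0.12 under CI-994. Fkbp9, by contrast, was 0.05 ± 0.07 from vehicle under SAHA and 0.36 ± 0.07 above it under CI-994, and Tpd52l1 was -0.06 ± 0.12 and 0.30 ± 0.12. The second Tpd52l1 probe stood above vehicle under both drugs, by 0.19 ± 0.07 under SAHA and 0.49 ± 0.07 under CI-994. Pdhb, Sepp1 and Anln had CI-994 values of -0.32 ± 0.12, -0.31 ± 0.12 and -0.35 ± 0.16 against vehicle, beside SAHA values of 0.03, 0.04 and 0.07. Other probes of these genes did not show such values. Under CI-994 the other Pdhb probes stood at 0.12 ± 0.10 and 0.38 ± 0.35 from vehicle. The second Sepp1 probe stood at 0.18 ± 0.28 and the second Anln probe at -0.07 ± 0.07. For Timp4 the 2 drugs stood at 0.21 ± 0.11 and -0.22 ± 0.11, almost symmetrically about the vehicle mean.

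Transcripts of the HDAC family, which holds the targets of both drugs, were not separated by the test. Of 10 HDAC genes tested in the NAc (Hdac2 to Hdac11), 0 passed an unadjusted p of 0.05. Hdac1 was not analysed here. Their differences ran from -0.18 to 0.05 with a median of -0.02, beside 0.00 over all probes tested. Hdac2, a class I enzyme, read 9.07, 10.42 and 9.86 under SAHA and 9.15, 10.47 and 10.27 under CI-994, where replicate 1 of both drugs was low and the groups overlapped. Hdac3, also of class I, was 9.03, 9.42 and 9.26 against 9.02, 9.29 and 9.26, a difference of 0.05 ± 0.10. Hdac6, the class IIb deacetylase of tubulin, differed by -0.06 ± 0.12. Hdac5, a class IIa member, differed by 0.05 ± 0.19.

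The partners and opponents of the HDACs were as close. Among 15 subunits of the Sin3, NuRD, CoREST and NCoR corepressor complexes, 0 passed and the median difference was -0.02. Among 10 acetyltransferases and bromodomain readers the median was -0.02, and Kat2a, a histone acetyltransferase of the SAGA complex, was the member past an unadjusted p of 0.05, a threshold that 1.33% of all probes passed. Kat2a read 7.87, 7.65 and 8.01 under SAHA and 8.31, 8.04 and 7.95 under CI-994, so the pools overlapped, with a difference of -0.25 ± 0.11 that stayed short of 1.2-fold.

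Genes that HDAC inhibitors raise in cultured cells were not separated between the drugs either. Of 6 such genes tested 0 passed, and their median difference was 0.03. Cdkn1a, the cell cycle inhibitor p21, read 7.68, 7.46 and 7.46 under SAHA and 7.48, 7.29 and 7.01 under CI-994, for a difference of 0.27 ± 0.35. Bdnf, the brain-derived neurotrophic factor, was near the floor of the arrays at 6.76, 6.74 and 6.70 against 6.82, 6.78 and 6.58. Histone genes had a median difference of 0.00 over 9 members, and 0 of those passed.

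Markers of medium spiny neurons lay below 0 and those of oligodendrocytes above it, while astrocyte markers were mostly above. In bulk tissue, fewer cells of a type and less RNA per cell cannot be told apart. All 17 markers of medium spiny neurons were lower under SAHA, with a median of -0.17 and a range from -0.37 to -0.07, yet 0 of them passed an unadjusted p of 0.05 and 0 had separated pools. Over all probes tested the median was 0.00, and 10784 of 22067 were higher under SAHA. Rasd2, a small GTPase enriched in the striatum, had the largest of these differences (-0.37 ± 0.18), followed by Rgs9, a regulator of G-protein signalling (-0.33 ± 0.26). The mean over the 17 genes was 10.59, 10.65 and 10.23 in SAHA replicates 1, 2 and 3 and 10.87, 10.74 and 10.47 under CI-994. SAHA replicate 3 was the lowest pool and CI-994 replicate 1 the highest, and the groups overlapped. Without SAHA replicate 3 the median difference was -0.02, without CI-994 replicate 1 it was -0.05, and without SAHA replicate 2 it was -0.31.

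All 9 markers of oligodendrocytes were higher under SAHA, with a median difference of 0.25 and a range from 0.12 to 0.33, and 0 passed an unadjusted p of 0.05. The pools were separated for 2 of the 9, Mog and Cldn11, where 3.41% of all probes had SAHA wholly above CI-994. Mog, the myelin oligodendrocyte glycoprotein, read 8.78, 8.52 and 8.95 under SAHA and 8.50, 8.29 and 8.49 under CI-994, a difference of 0.33 ± 0.17. Cldn11, the claudin of myelin tight junctions, was 11.64, 11.60 and 11.67 against 11.36, 11.30 and 11.44. The list median was 0.28 on BeadChip 1 and 0.23 on BeadChip 2. Without SAHA replicate 3 it was 0.15, and the mean of SAHA replicate 3 over the 9 genes, 10.53, was the highest of the 6 pools. Against vehicle, whose pools lay differently on the BeadChips, the median of this list was 0.03 under SAHA and -0.20 under CI-994. For the medium spiny neuron list it was -0.30 under SAHA and -0.07 under CI-994.

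Of 9 astrocyte markers 7 were higher under SAHA, with a median of 0.20, and 2 passed an unadjusted p of 0.05 and 1.2-fold, against 0.258% of all probes in that direction. These were Gjb6, described above, and Gja1, which encodes connexin 43 and read 11.35, 11.53 and 11.65 under SAHA and 11.03, 11.29 and 11.40 under CI-994 (0.27 ± 0.12, with overlapping pools). Gfap, the intermediate filament of astrocytes, differed by 0.60 ± 0.30 with an unadjusted limma p of 0.0661. Its values were 8.21, 7.65 and 9.004 under SAHA against 7.84, 7.41 and 7.80, so that SAHA replicate 3 stood above the other 5 pools and SAHA replicate 2 lay inside the range of CI-994. The transporters Slc1a2 (-0.06 ± 0.08) and Slc1a3 (0.10 ± 0.11), which clear glutamate, differed little. Without SAHA replicate 3 the astrocyte median was 0.14.

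SAHA replicate 3 held the lowest mean for medium spiny neuron markers of all 12 NAc arrays, and the highest astrocyte mean (10.14). The septal markers, only 3 genes, also reached their highest mean in SAHA replicate 3, 7.66 against 7.36 in the highest CI-994 pool. Their mean varied between pools under other treatments too. It was 7.39 in Cpd-60 replicate 3 and 6.92 in vehicle replicate 3. On BeadChip 1, replicate 1 was at 6.76 under SAHA, 6.70 under CI-994, 6.68 under Cpd-60 and 6.73 under vehicle. Markers of microglia, endothelial cells and choroid plexus had median differences of 0.04, -0.01 and 0.04 with 0 members past an unadjusted p of 0.05. The mean of the choroid plexus markers was 7.42 in SAHA replicate 3 and at most 7.21 in the CI-994 pools, and without SAHA replicate 3 their median difference was -0.01. Haemoglobin and other blood markers had a median of -0.49 on BeadChip 1 and 0.59 on BeadChip 2, opposite in sign. The part of tissue composition in the gene differences was not tested.

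**Figure D4:**
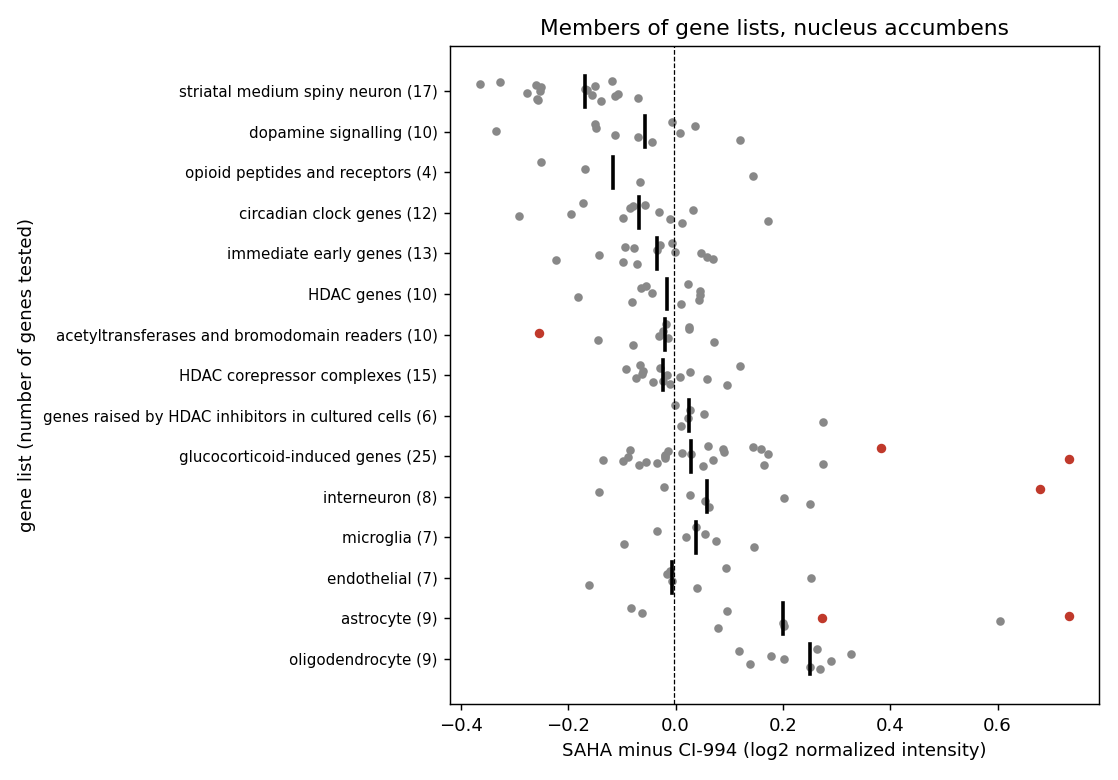
SAHA minus CI-994 difference in the NAc (x axis, log2 normalized intensity) for each tested member of 15 gene lists, with the number of genes tested in brackets. Black bars are list medians, the dashed line is the median of all probes tested, and red points passed an unadjusted p of 0.05. The 17 medium spiny neuron markers lie wholly below 0 and the 9 oligodendrocyte markers wholly above it.

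Signalling genes of the medium spiny neuron were mostly within the spread of the pools. Drd1a and Drd2, the D1 and D2 dopamine receptors that mark the direct and indirect pathway neurons, differed by -0.07 ± 0.14 and -0.11 ± 0.27. Drd2 read 9.05, 8.74 and 8.57 under SAHA and 9.45, 8.86 and 8.38 under CI-994, so the ranges overlapped almost wholly. Ppp1r1b, which encodes the dopamine-regulated phosphatase inhibitor DARPP-32, differed by -0.15 ± 0.27. Among 10 genes of dopamine signalling 0 passed and the median was -0.06. The opioid peptide precursors Penk1 (enkephalin) and Pdyn (dynorphin) differed by -0.25 ± 0.43 and -0.17 ± 0.15.

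Synaptic and trophic genes held a few separated members. Nsf, the ATPase that disassembles SNARE complexes after vesicle fusion, read 11.75, 11.72 and 11.82 under SAHA and 11.53, 11.51 and 11.60 under CI-994. This difference of 0.21 ± 0.06 was equal on both BeadChips, though under 1.2-fold (limma, unadjusted p = 0.00650). Of 13 genes of synaptic vesicle release, Nsf was the member past an unadjusted p of 0.05, beside 1.33% of all probes. Pools were separated in the other direction for Syn2, a synapsin (-0.13 ± 0.09), and Stx1a, a syntaxin (-0.24 ± 0.15), neither of which passed. Over all probes, 3.35% had SAHA wholly below CI-994. The 11 genes of GABA synthesis and GABA-A receptors had a median of 0.04. Of the 11, 1 was past an unadjusted p of 0.05 and 2 had separated pools, all higher under SAHA. The shares of all probes in that direction were 0.820% and 3.41%. None of 15 genes of glutamate receptors and postsynaptic scaffold passed, and their median was -0.01.

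In neurotrophin signalling, 2 of 7 genes passed an unadjusted p of 0.05 and 1.2-fold, both higher under SAHA, beside 0.258% of all probes. The median of the 7 was 0.01. Ntrk2, the receptor of BDNF, read 10.35, 9.88 and 10.26 under SAHA and 9.99, 9.87 and 9.65 under CI-994, with 1 SAHA pool inside the range of CI-994 (0.32 ± 0.13). Ngfr, the p75 neurotrophin receptor, read 7.08, 6.89 and 7.46 against 6.76, 6.79 and 6.88 (0.33 ± 0.14), close to the floor of detection. Their ligand Bdnf differed by 0.01 ± 0.10.

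Hormone- and activity-regulated genes gave no common shift. Of 25 genes induced by glucocorticoids, 2 passed an unadjusted p of 0.05 and 1.2-fold with SAHA higher, beside 0.258% of all probes, and the median over the 25 was 0.03. These were Gjb6 and Sult1a1, both already among the genes chosen by this comparison. Sgk1, a kinase induced by glucocorticoids, differed by 0.16 ± 0.22 and Fkbp5, a cochaperone of their receptor, by -0.14 ± 0.15. Among 13 immediate early genes 0 passed, with a median of -0.03. Arc, a synaptic protein induced by activity, read 7.96, 8.15 and 8.03 under SAHA and 8.81, 8.23 and 7.32 under CI-994. Its CI-994 pools thus spanned a wider range than the gap between the groups. Of 12 clock genes 0 passed, and Dbp, an output gene of the clock, had the largest difference at -0.29 ± 0.14.

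Among 12 heat shock and chaperone genes the median was 0.06, and Hspb1, a small heat shock protein, was the member past an unadjusted p of 0.05 (0.17 ± 0.07), beside 1.33% of all probes. The 13 genes of cholesterol synthesis and uptake had a median of 0.02 with 0 past that threshold. The 8 genes of reactive astrocytes and the acute phase had a median of 0.02. Itih3, already among the genes chosen by this comparison, was the member past an unadjusted p of 0.05 and 1.2-fold. Over all probes, 0.258% passed both with SAHA higher. Markers of cortical, hippocampal and hypothalamic neurons had medians of 0.04, 0.00 and 0.04, sex-specific genes 0.04 and genes that differ between substrains -0.02, with 0 members past an unadjusted p of 0.05. Some genes stand in several lists, Gjb6 and Sult1a1 among them. The 57 ribosomal protein genes had a median of -0.01. The 66 subunits of oxidative phosphorylation had a median of 0.05 with 51 higher under SAHA, and Ndufc2, a complex I subunit, was the 1 member of the 66 past an unadjusted p of 0.05 (0.18 ± 0.06), a share close to the 1.33% of all probes. The 3 metallothioneins, which bind zinc and copper, had a median of 0.17, from 0.03 ± 0.19 for Mt2 to 0.22 ± 0.38 for Mt3, and without SAHA replicate 3 it was 0.01.

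Of 12 genes that the study named from these arrays, 3 were past an unadjusted p of 0.05 with SAHA higher (0.820% of all probes) and 1 with SAHA lower (0.512%). Since the study picked them on this series, they are no independent evidence of a direction. Agxt2l1, a phospholyase expressed in astrocytes, read 7.90, 7.38 and 8.09 under SAHA and 6.96, 7.26 and 7.42 under CI-994. The difference was 0.57 ± 0.18 (limma, unadjusted p = 0.00808), and SAHA replicate 2 lay inside the range of CI-994. Rock2, a kinase that acts on the actin cytoskeleton, was 7.08, 7.17 and 7.13 under SAHA and 7.34, 7.37 and 7.38 under CI-994. This difference of -0.23 ± 0.06 had the smallest p of the 12 (limma, unadjusted p = 0.00274), with the 3 pools of each drug close together, and it was under 1.2-fold. Mef2c, a transcription factor of neuronal activity, differed by 0.18 ± 0.07, and Sult1a1 was described above. Tsc22d3 (0.14 ± 0.20), Qdpr (0.10 ± 0.19), Igfbp5 (0.10 ± 0.15), Mfsd2 (-0.02 ± 0.25) and Per2 (-0.08 ± 0.13) did not pass.

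The same contrast was made in the PFC and HIP of the same animals to see where the NAc differed. There, 157 of 20757 probes in the PFC (0.756%) and 496 of 21131 in the HIP (2.35%) passed an unadjusted p of 0.05 and 1.2-fold, and 0 passed an adjusted p of 0.05 in either. With the replicate number as a block, the HIP gave 863 probes at the first pair of thresholds and 1 at the adjusted p. Whether the NAc difference departed from the mean of the other regions was tested as an interaction over 17978 probes. In that test 0 passed an adjusted p of 0.05, and 395 passed an unadjusted p of 0.05 (2.20%). No difference is thus shown to belong to the NAc. Of the 12 genes higher under SAHA in the NAc, 0 in the PFC and 4 in the HIP were past an unadjusted p of 0.05 in the same direction, where 4.02% and 8.40% of all probes passed in either direction. Of the 12 genes higher under CI-994, 2 and 3 were.

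Tpd52l1 was lower under SAHA in all 3 regions. In the PFC it read 7.81, 7.73 and 7.81 under SAHA and 8.55, 8.49 and 8.14 under CI-994, a difference of -0.61 ± 0.10 with an unadjusted limma p of 2.6e-05. In the HIP the values were 8.06, 8.39 and 8.10 against 8.56, 8.40 and 8.40, and the difference was -0.27 ± 0.09. Pools did not overlap in any of the 3 regions, where 3.35% of all probes in the NAc, 6.35% in the PFC and 8.20% in the HIP had SAHA wholly below CI-994, and the interaction was 0.08 ± 0.13. Fkbp9 differed by -0.23 ± 0.11 in the PFC and -0.31 ± 0.11 in the HIP, with overlapping pools in both. Sox12 differed by -0.33 ± 0.10 in the HIP and -0.08 ± 0.11 in the PFC.

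Shh stood at the other end, with -0.06 ± 0.09 in the PFC and -0.01 ± 0.08 in the HIP beside 0.40 in the NAc (limma interaction 0.43 ± 0.12, unadjusted p = 0.00164, not significant after adjustment). Timp4 differed by 0.01 and 0.09 in the PFC and HIP, and its interaction of 0.38 ± 0.12 likewise did not pass adjustment. Itih3 was higher under SAHA by 0.16 ± 0.12 in the PFC and 0.28 ± 0.12 in the HIP. The medium spiny neuron list, whose genes are less expressed outside the striatum, had medians of 0.06 and 0.07 in the PFC and HIP. The oligodendrocyte list had 0.21 and -0.01, and the astrocyte list 0.03 and 0.04.

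**Figure D5:**
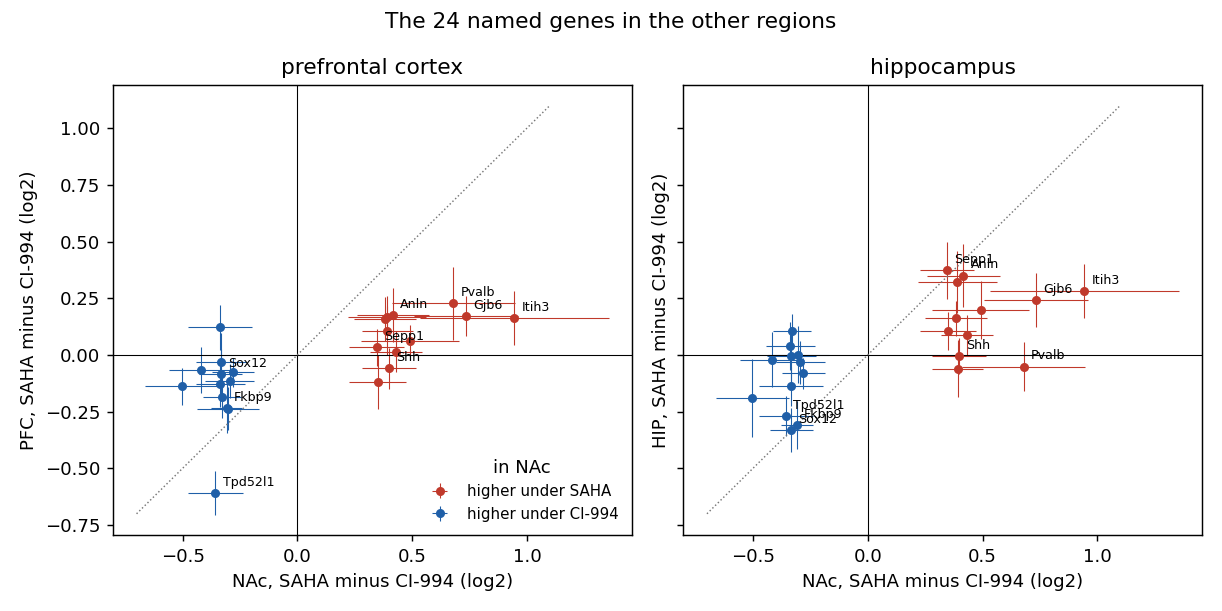
SAHA minus CI-994 difference of the 24 named genes in the NAc (x axis) against the same difference in the PFC (left) and the HIP (right), in log2 normalized intensity. Bars are standard errors and the dotted line is equality. The genes were chosen on the x axis, most lie nearer to 0 on the y axis, and Tpd52l1 in the PFC reaches -0.61.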

How the data were processed

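RNA from the NAc of 6 pools, 3 under SAHA and 3 under CI-994, was compared, with 3 vehicle and 3 Cpd-60 pools of the same region in the fit. The authors deposited, for each of 45281 probes and each array, a raw linear intensity, not background-subtracted or normalized between arrays, and a detection p-value. Scanner software and bead summary are not given in the sources used here. The groups came from the labels. Intensities of all 36 arrays were quantile normalized, floored at 1 and put on the log2 scale. The detection threshold in the study's methods was taken to mean a p of 0.2 or lower, and a probe was tested if it met this in all 3 pools of either drug. R 4.3.3 and limma 3.58.1 were used to fit the 12 NAc arrays (4 treatments, 8 residual degrees of freedom), with Benjamini-Hochberg adjustment over all probes tested. The p-values measure the spread between pools of 2 mice together with that between BeadChips, which the main fit did not separate. Errors given with ± are standard errors of that fit. Levels are compared between samples, not between probes.

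Of 30869 gene symbols on the array, 21922 matched current RefSeq symbols or synonyms. Named genes were to be the 12 largest differences in each direction past an adjusted p of 0.05 with pools that did not overlap. As there were 0, both directions were filled with the largest differences past an unadjusted p of 0.05 and 1.2-fold, 1 probe a gene (the largest difference) and matched symbols only. The 12 genes the study names and members of described lists were named too, each by its brightest tested probe. The members and the 35 gene lists were chosen with earlier results of these data known. Same-numbered pools of the drugs deviated together (r = 0.871, 0.616 and 0.368 across probes), but so did differently numbered pools on BeadChip 2 (0.572 and 0.360), which holds replicates 2 and 3 of both drugs. The other regions were fitted in the same way, and the interaction was fitted over all 36 arrays with the pool as a random block. The procedure was tested on simulated data with 200 changed probes. Alternatives were neqc (limma's background correction and normalization), median scaling, other filters, BeadChip or replicate blocks, and leaving out pools. The number of arrays limits the precision. The values of a few list members are not reported here.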

Additional observations from a re-analysis of the deposited data

Results flagged for a closer look

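Reep6 was singled out because its pools were separated in opposite directions in the NAc and the HIP. In the NAc its 3 SAHA pools lay wholly below the 3 CI-994 pools, with a difference of -0.33 on the log2 scale. In the HIP they lay wholly but narrowly above them, at 7.35, 7.40 and 7.313 against 7.310, 7.17 and 7.27 (0.10 ± 0.07). Reep6 was not alone in this. Of 1010 probes tested in both regions and separated in the NAc, 58 were separated the opposite way in the HIP and 85 the same way. The difference between the NAc and the mean of the PFC and HIP was -0.29 ± 0.11 by limma, with an unadjusted p of 0.0111, and did not pass after adjustment. The second Reep6 probe had the opposite sign in the NAc (0.21 ± 0.06).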

How the results depend on the processing

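In the NAc, 0 probes passed an adjusted p of 0.05 under any alternative run. The 294 probes at an unadjusted p under 0.05 became 853 without a detection filter, 596 with the BeadChip as a block, 161 at a detection p of at most 0.01, 39 with median scaling and 100 with the methods' one-way analysis with Tukey's comparison, and ranged from 197 to 661 with 1 pool left out. The 80 probes that were also 1.2-fold apart (57 higher under SAHA, 23 lower) became 295 with neqc (172 and 123), 126 with the BeadChip block (83 and 43), 39 with median scaling (29 and 10) and 10 with the methods' analysis (4 and 6). They ranged from 56 to 432 with 1 pool left out, and without SAHA replicate 1 the balance turned to 55 higher and 109 lower. Of the 80, 67 were also called with neqc and 35 with median scaling.

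With the replicate number as a block, the pairing gave 427 and 110 probes in the NAc, 863 in place of 496 in the HIP at 1.2-fold, and 1 in place of 0 at an adjusted p of 0.05 in the HIP, and 23 of the 24 named genes kept an unadjusted p under 0.05. With neqc the 1.2-fold counts were 944 in the PFC (157) and 1926 in the HIP (496). With 1 pool left out they ranged in the PFC from 172 to 304 (256 without SAHA replicate 1, 304 without CI-994 replicate 3) and in the HIP from 231 without CI-994 replicate 2 to 1714 without CI-994 replicate 3, with 781 without SAHA replicate 1 and 872 without CI-994 replicate 1, and the PFC count at an adjusted p of 0.05 ranged from 0 to 1. The interaction count of 395 was 623 with the BeadChip block and ranged from 208 without CI-994 replicate 2 to 1330 without CI-994 replicate 1, with 1099 without SAHA replicate 2. The 24 named genes kept their direction with neqc, median scaling, both blocks and each SAHA or CI-994 pool left out, which their choice by separated pools largely fixes, and 14 to 21 kept an unadjusted p under 0.05 with 1 SAHA or CI-994 pool left out. The causes of these shifts were not tested.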
